A study of Mus musculus with 6 samples.

Results

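The ATP-binding cassette (ABC) superfamily was followed in mouse liver as the genes whose symbols run from Abca to Abcg with a number, a rule that uses names and no measured value. The rule took 50 of the 21899 genes listed. RNA was sequenced from the livers of 6 C57BL/6 mice, an inbred laboratory strain, 3 given CSAA, the control feed, and 3 given CDAA. In this field CSAA is an amino acid-defined feed with choline added, and CDAA is its counterpart lacking choline. All mice were 6 weeks old at the start and had 1 week to acclimatise. The CDAA mice then passed through mixed feeds for 1 week, and livers of both groups were collected at week 6 from that change. No genotype or further agent is named, and the groups are called by their labels. The replicates are separate mice, so p-values set the difference between the diets against the spread among animals. The labels give no cage or litter, so an effect of these that runs with the diet is not covered.

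ABC proteins share a cassette that binds and hydrolyses ATP, and most use it to move a substrate across a membrane. In hepatocytes, the parenchymal cells of the liver, members on the canalicular membrane, where bile forms, export bile salts, phosphatidylcholine, sterols and conjugated drugs, while others load cholesterol onto lipoproteins or carry fatty acids into peroxisomes. The Abce and Abcf groups have cassettes without membrane domains and act on ribosomes, so the superfamily is wider than its transporters.

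Reads over genes numbered from 14580676 to 17367173 per library. Levels between the diets are given as CPM, a gene's reads per common library total, on library sizes adjusted with edgeR's TMM factors. The factors were 1.17, 1.1 and 1.04 in the CSAA libraries and 0.904, 0.883 and 0.935 in the CDAA libraries. The adjustment therefore raised every CDAA level relative to every CSAA level. With 3 reads as the detection floor, the floor lay between 0.148 and 0.228 CPM, which covers counting error only. The summed level of 14 hepatocyte markers was 81010 to 103500 CPM in the CSAA livers and 117800 to 130300 CPM in the CDAA livers, with no marker at 0. Of the 14, 3 passed as higher with edgeR and 0 as lower, with a median log2 fold change of 0.45. DESeq2 called 9 of them higher. Most of the sum was Alb, which did not pass (edgeR adjusted p = 0.309). The summed level of 17 monocyte and macrophage markers was 928 to 1834 CPM in the CSAA livers and 384 to 498 CPM in the CDAA livers, and 12 of the 17 passed as lower with edgeR. For 10 stellate cell and fibroblast markers the sums were 1091 to 1441 and 447 to 738 CPM, with 6 lower. For 7 lymphocyte markers the sums were 22.5 to 31.4 and 4.34 to 7.68 CPM, with 5 lower. Of 8 endothelial markers 1 was lower, and of 5 cholangiocyte markers tested 1 was lower. Over all genes tested, edgeR called 4.25% higher and 10.5% lower. DESeq2 called 2687 of 14016 genes in either direction, and its share by direction was not taken. CDAA replicate 1 also held 1708 CPM of pancreatic acinar and 232 CPM of striated muscle transcripts, against at most 12.4 and 0.934 CPM in the CSAA livers. Without that library 6 members of the superfamily were called higher and 4 lower, against 5 and 5 with it. The macrophage, fibroblast and lymphocyte markers were thus higher in the libraries labelled as control feed, and no measurement here identifies the feed of a library. Every direction given rests on the labels, and an exchange of the labels would turn each one.

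Members of the superfamily took 0.573% ± 0.0379 of the reads in the CSAA livers and 0.606% ± 0.106 in the CDAA livers (SD, n = 3), a difference smaller than the spread among the CDAA livers. Between 43 and 46 of the 50 members had at least 1 read in a given library. After the filter on low counts 40 members were tested. The other 10 were Abca4, Abca12, Abca13, Abca14, Abca15, Abca16, Abca17, Abcb5, Abcc8 and Abcg4, and of these Abca12, Abca15 and Abcb5 had 0 reads in all 6 libraries. Abca14 came nearest to being tested, with 5, 9 and 5 reads in the CSAA libraries and 7, 29 and 18 in the CDAA libraries. It was called with DESeq2, which uses another filter, and in the edgeR fit without CDAA replicate 1.

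With edgeR's quasi-likelihood test, adjusted over all 12845 genes tested, 10 of the 40 members passed at an adjusted p under 0.05, which is 25.0% beside 14.8% of all genes. Abca6, Abca8a, Abcb10, Abcd3 and Abcg2 were higher in the CDAA livers, 12.5% of the members tested beside 4.25% of all genes. Abcc1, Abcc5, Abcc12, Abcg1 and Abcg3 were lower, 12.5% beside 10.5% of all genes. The groups did not overlap for any of these 10, which were picked by the test on the same libraries, so this adds no support. Among all 40, CDAA was higher without overlap in CPM for 13 members (32.5%, beside 15.6% of all genes). It was lower for 8 (20.0%, beside 20.4%), and the groups overlapped for 19. The median log2 fold change was 0.08 over the members and 0.0002 over all genes, and the median size of a change, whatever its sign, was 0.34 against 0.26. Of the 40 members, 24 had a log2 fold change above 0.

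Abcg1, Abcc1, Abcc5 and Abcd3 passed in each of the 14 alternative fits tried, and the other 6 did not. The split of 5 higher and 5 lower became 2 and 9 when libraries were scaled by size alone, a scaling that moved the median log2 fold change of all genes by -0.28, and 10 and 6 with DESeq2. It became 1 and 3 without CSAA replicate 1, 2 and 3 without CSAA replicate 2, and 5 and 3 without CSAA replicate 3. In CDAA replicate 3, 10 of the 40 members were over 1.5 times the mean of the other CDAA livers. For 1 member it was below that mean by more than this factor. Those 10 were Abca7, Abca8a, Abcb1a, Abcb6, Abcb11, Abcc3, Abcc4, Abcc12, Abcd2 and Abcg3. By the same measure CDAA replicate 1 had 1 member over and 7 below, and CDAA replicate 2 had 1 over and 5 below. CDAA replicate 3 also differed most over all genes tested. Its chi-square per degree of freedom was 81.4 and 63 against the other CDAA libraries, and 22.3 between those. The share of all genes over 1.5 times was not taken, so no trait of the superfamily is shown.

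**Figure D1:**
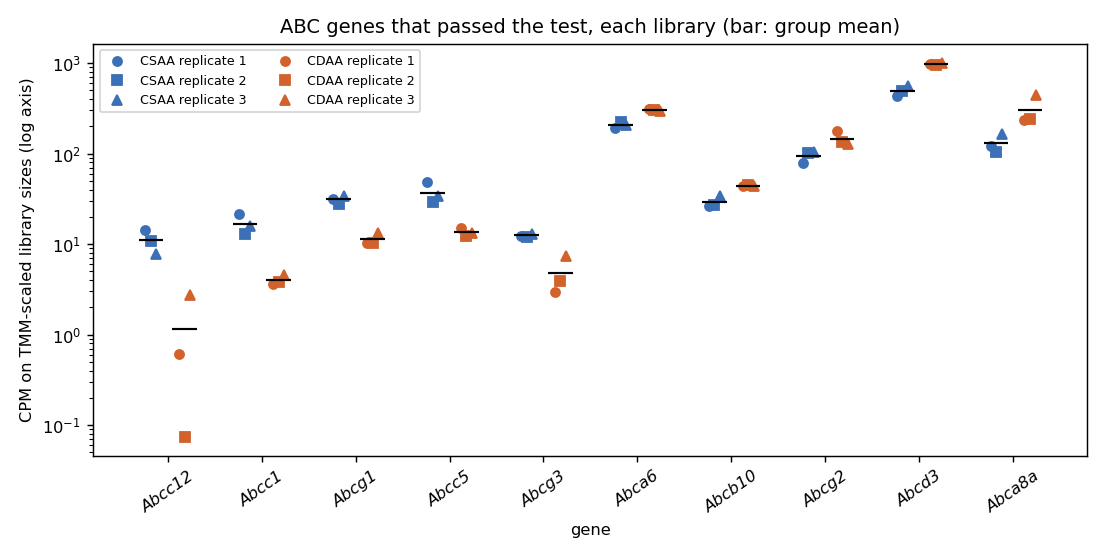
Level in CPM (log axis) of the 10 members that passed, 1 point for each of 3 CSAA and 3 CDAA livers, with bars at the group means. For each gene the CSAA and CDAA points do not overlap, from Abcd3 at 433 to 1009.8 CPM down to Abcc12 at 0.0741 to 14.2 CPM.

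Levels of different genes were compared per transcript length, as the deposited FPKM (reads scaled by gene length and library total, without TMM factors). Abcb11 had the highest mean over the 6 livers at 180.5 FPKM, followed by Abcc2 at 117 FPKM, Abcd3 at 108.5 FPKM, Abcb4 at 55.9 FPKM and Abcc3 at 51.9 FPKM. These 5 genes made up 55.1% ± 2.67 of the superfamily's FPKM in the CSAA livers and 55.1% ± 4.49 in the CDAA livers (SD, n = 3). Abcb11 was at 151 ± 16.6 FPKM in the CSAA livers and 210.0 ± 99.2 FPKM in the CDAA livers, and Abcc2 at 129 ± 36.4 and 105.5 ± 20.2 FPKM. Abcb11 was the higher of these in 5 of 6 livers by FPKM, and Abcc2 in CSAA replicate 2 (169.9 against 136.9 FPKM). Abcd3 made up 9.35% ± 0.997 of the superfamily's FPKM in the CSAA livers and 14.1% ± 1.91 in the CDAA livers. The 5 members that passed as lower were among the less abundant, with means over the 6 livers of 3.06 FPKM for Abcg1, 2.55 for Abcg3, 2.50 for Abcc5, 1.00 for Abcc12 and 0.737 for Abcc1.

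**Figure D2:**
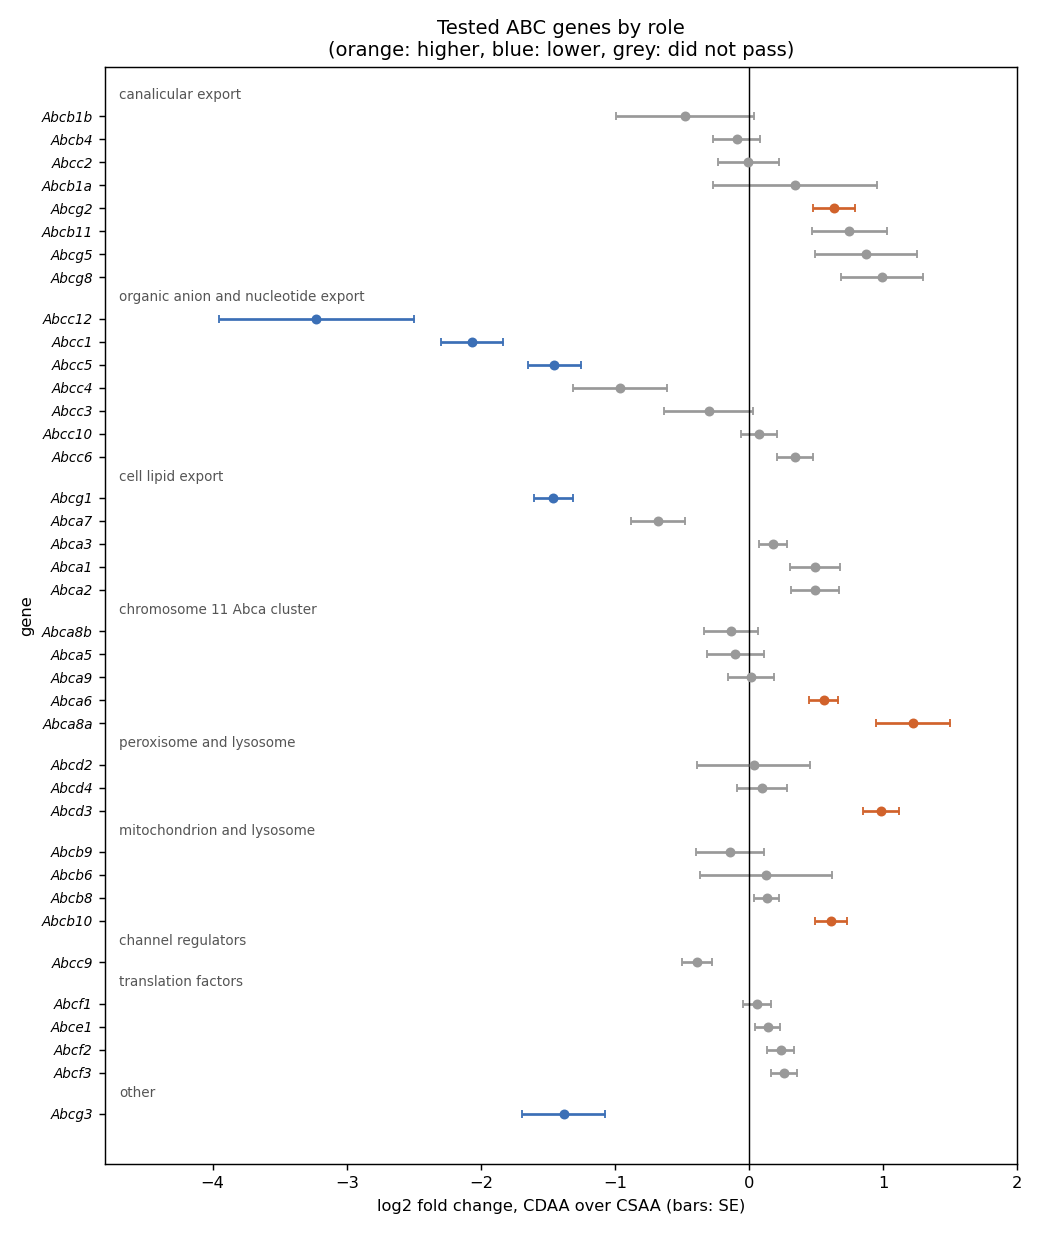
Log2 fold change of CDAA against CSAA for the tested members reported here, 1 point per gene with its standard error, grouped by role. The values run from -3.23 for Abcc12 to 1.22 for Abca8a.

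All 8 canalicular exporters were tested and 1, Abcg2, passed, as higher, beside a median log2 fold change of 0.49 over the 8. Abcg2, the half-transporter also called breast cancer resistance protein that exports drugs and urate, was at 78.9, 101.0 and 103.6 CPM in the CSAA livers and 176.6, 135.2 and 127.8 CPM in the CDAA livers. Each CDAA liver lay above each CSAA liver, and CDAA replicate 1 was the highest. Abcg2 (ENSMUSG00000029802, chromosome 6, 58561508 to 58672661 on the files' unnamed build) rose by 0.63 ± 0.16 on the log2 scale (SE), from 94.5 ± 13.5 to 146.5 ± 26.3 CPM, with an edgeR adjusted p of 0.0358. The adjusted p was above 0.05 with scaling by library size (0.113) and without any of CSAA replicates 1, 2 and 3 or CDAA replicates 1 and 2, where it reached 0.115.

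Abcb11, the bile salt export pump, is the step that sets bile salt flow into the canaliculus. Its levels were 744.8, 642 and 726.9 CPM in the CSAA livers and 866.6, 896.5 and 1787.5 CPM in the CDAA livers. The groups did not overlap in CPM, but CDAA replicate 3 was far above the other CDAA livers. In FPKM, without TMM factors, they did overlap. There CSAA replicate 1 (169.4 FPKM) lay above CDAA replicates 1 and 2 (151.7 and 153.8 FPKM). The log2 difference was 0.75 ± 0.28 and did not pass with edgeR (adjusted p = 0.110), while DESeq2 gave an adjusted p of 0.0216. Without CDAA replicate 3 the log2 difference was 0.33. Abcb4, which flips phosphatidylcholine to the canalicular leaflet, was at 565.4, 573.8 and 468.7 CPM in the CSAA livers and 406.2, 485.4 and 616.4 CPM in the CDAA livers. These groups overlapped, and the log2 difference of -0.09 ± 0.17 did not pass (edgeR adjusted p = 0.76). In FPKM the ratio of Abcb4 to Abcb11 was 0.416, 0.490 and 0.354 in the CSAA livers and 0.257, 0.297 and 0.189 in the CDAA livers, so every CDAA liver had less Abcb4 per Abcb11 than every CSAA liver. That ratio was not tested.

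Abcc2, the canalicular pump for bilirubin glucuronides and other conjugates, was at 852, 1320.8 and 820.2 CPM in the CSAA livers and 779.6, 1114.3 and 1087 CPM in the CDAA livers. The ranges overlapped almost fully, and the log2 difference was -0.01 ± 0.23 (edgeR adjusted p = 0.989). Its sign turned with several settings. Abcb1a and Abcb1b, the pair of rodent P-glycoproteins that export a wide range of drugs, were low. Abcb1a was at 6.89, 11.3 and 4.91 CPM in the CSAA livers and 3.81, 5.04 and 20.3 CPM in the CDAA livers, and Abcb1b at 2.90, 2.08 and 2.92 against 3.58, 0.889 and 1.21 CPM. Neither passed (edgeR adjusted p = 0.749 and 0.576), and for both the groups overlapped. Abcb1a turned from a log2 difference of 0.34 to -0.80 without CDAA replicate 3. Abcb1b went from -0.48 to -1.32 without CDAA replicate 1, with an adjusted p of 0.0863. These related neighbours could share some reads, so the division between them is uncertain.

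**Figure D3:**
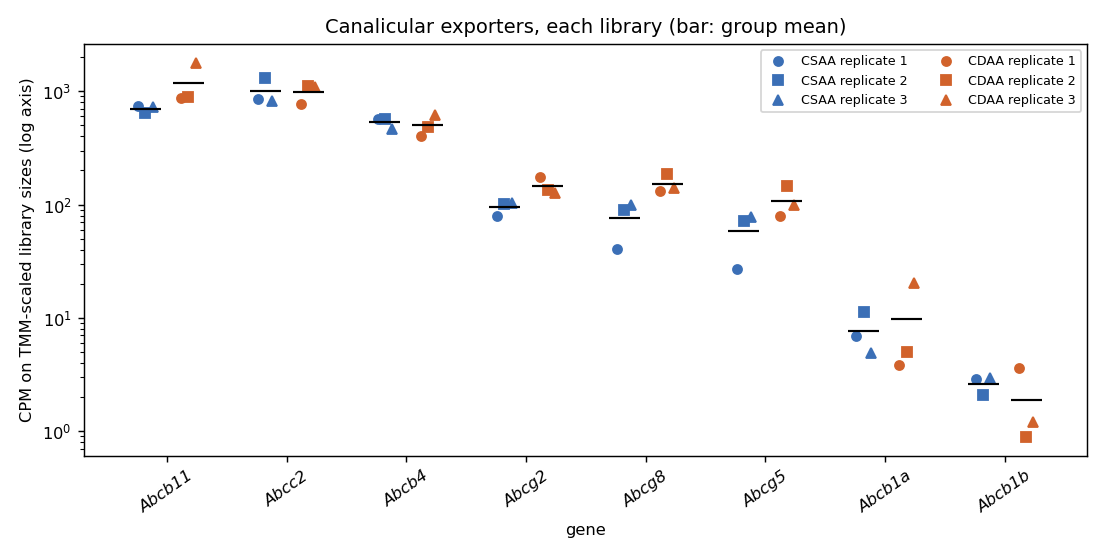
Level in CPM (log axis) of the 8 canalicular exporters, 1 point for each CSAA and CDAA liver, with bars at the group means. Abcg2, Abcg5, Abcg8 and Abcb11 have no overlap between the diets in CPM, although Abcg5 and Abcb11 overlap in FPKM. Abcb11 in CDAA replicate 3 (1787.5 CPM) lies far above the other CDAA livers.

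Abcg5 and Abcg8 encode the partner subunits of the sterol exporter that secretes cholesterol and plant sterols into bile, and the genes sit head to head on chromosome 17. RefSeq (GRCm38.p6) listed 2 windows for Abcg8, of which the other lay at chr17:84676052-84676351. From the start used here, that of Abcg5 was 109 bases away, and their promoter windows, 250 bases before to 50 after each start, shared 209 bases. The window of Abcg8, at chr17:84682871-84683170 on the plus strand, is printed because of this overlap. Whether it acts on both genes was not tested. In the files the Abcg8 interval begins inside that of Abcg5, with 6710 bases shared, so the counted Abcg8 does not begin at the start used here.
Abcg8 window: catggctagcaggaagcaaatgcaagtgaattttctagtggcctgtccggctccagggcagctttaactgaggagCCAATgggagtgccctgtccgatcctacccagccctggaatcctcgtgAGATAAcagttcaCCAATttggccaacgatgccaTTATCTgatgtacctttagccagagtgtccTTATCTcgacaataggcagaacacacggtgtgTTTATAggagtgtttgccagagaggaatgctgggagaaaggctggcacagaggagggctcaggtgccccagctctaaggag
Capitals mark matches on either strand to 3 motifs. These are CCAAT, the GATA factor motif AGATAA, which reads TTATCT from the opposite strand, and TATAAA, which reads TTTATA from the opposite strand. No matches overlap. The CCAAT box matched 2 times, the GATA motif 3 times and the TATA motif 1 time. Of 32851 mouse promoter windows, 37.4% held the CCAAT box, 11.2% the GATA motif and 13.6% the TATA motif. The AGATAA motif was added to the search after this sequence had been seen. A match is a description of letters and not evidence of binding.

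Abcg5 was at 27.0, 72.2 and 77.6 CPM in the CSAA livers and 79.4, 145.2 and 98.4 CPM in the CDAA livers. Abcg8 was at 40.9, 90.1 and 99.5 CPM in the CSAA livers and 132.4, 185.8 and 139 CPM in the CDAA livers. For both genes CSAA replicate 1 was the lowest liver, CDAA replicate 2 the highest, and the diets did not overlap in CPM. For Abcg5 the gap was narrow, and in FPKM, without TMM factors, its diets overlapped. There CSAA replicates 2 and 3 (29.2 and 29.8 FPKM) lay above CDAA replicate 1 (26.4 FPKM). Abcg8 had no overlap in FPKM either. The log2 differences were 0.87 ± 0.38 for Abcg5 and 0.99 ± 0.31 for Abcg8, and neither passed with edgeR (adjusted p = 0.166 and 0.0662). Abcg8 had an adjusted p of 0.00597 with DESeq2, and Abcg5 had a log2 difference of 0.55 without CSAA replicate 1. In FPKM the ratio of Abcg5 to Abcg8 stayed near 1, from 0.912 to 1.11 in the CSAA livers and from 0.829 to 1.08 in the CDAA livers. The intervals listed in the files for these genes, on opposite strands, share 6710 bases, and the strand setting of the counting is not given in the sources used here, so reads there could belong to either gene.

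**Figure D4:**
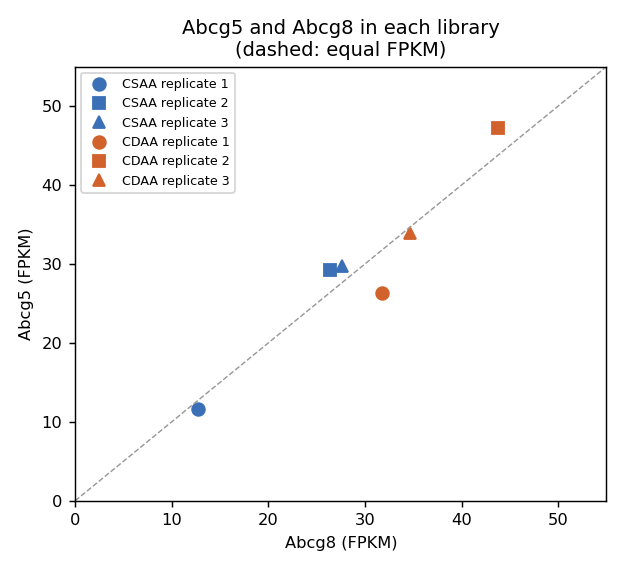
Abcg5 against Abcg8 level in FPKM, 1 point per liver. The 6 points lie close to the line of equal level, from 11.6 and 12.8 FPKM in CSAA replicate 1 to 47.3 and 43.7 FPKM in CDAA replicate 2.

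Among 9 canalicular partners, 8 were tested, 2 passed as higher and 1 as lower, with a median log2 fold change of 0.12. Atp8b1, the flippase that keeps the canalicular membrane asymmetric, was at 50.2, 59.3 and 62.2 CPM in the CSAA livers and 85.9, 85.7 and 88.7 CPM in the CDAA livers. Its partner subunit Tmem30a was at 198, 185 and 217 CPM in the CSAA livers and 300.5, 255 and 331 CPM in the CDAA livers. For both, every CDAA liver lay above every CSAA liver, and they rose by 0.60 ± 0.11 and 0.56 ± 0.13 on the log2 scale (edgeR adjusted p = 0.0103 and 0.0261). Ezr, which ties membrane proteins to actin, was at 20.0, 11.7 and 13.9 CPM in the CSAA livers and 10.3, 6 and 7.11 CPM in the CDAA livers. The groups did not overlap, and the log2 fold change was -0.97 ± 0.27 (edgeR adjusted p = 0.047). Of 7 basolateral uptake carriers, which supply the export pumps from blood, 2 passed, both as higher, with a median of 0.57. DESeq2 called 4 of the carriers higher. Over all genes edgeR called 4.25% higher and 10.5% lower, and DESeq2 called 2687 of 14016 in either direction. Slc10a1, the sodium-coupled bile salt carrier, went from 389 ± 144.5 to 814 ± 74.1 CPM, a rise of 1.06 ± 0.24 on the log2 scale (edgeR adjusted p = 0.0253). Slco1a1, an organic anion carrier, went from 326 ± 76.0 to 813 ± 165 CPM, a rise of 1.32 ± 0.21 (adjusted p = 0.00762).

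Of the 7 exporters of organic anions and nucleotides in the Abcc group, 3 passed, all as lower, beside 10.5% of all genes. The median log2 fold change over the 7 was -0.97. Abcc1, which exports glutathione conjugates and leukotriene C4, was at 21.5, 13 and 15.7 CPM in the CSAA livers and 3.65, 3.78 and 4.55 CPM in the CDAA livers. All CDAA livers were close together and well below the lowest CSAA liver. Abcc1 (ENSMUSG00000023088, chromosome 16, 14179422 to 14293601 on the files' unnamed build) fell by 2.07 ± 0.23 on the log2 scale, from 16.8 ± 4.36 to 3.99 ± 0.486 CPM, or 4.19-fold (edgeR adjusted p = 0.00182). In bulk liver, fewer cells of a type and less RNA per cell cannot be told apart. The part of the lower macrophage, fibroblast and lymphocyte marker sums in the lower Abc members was not tested. Nor was the part of the higher hepatocyte marker sums in the higher Abc members.

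Abcc5, which exports cyclic nucleotides, was at 48.0, 29.1 and 33.8 CPM in the CSAA livers and 14.9, 12.2 and 13.4 CPM in the CDAA livers. All CDAA livers were well below all CSAA livers, and CSAA replicate 1 was the highest of all. Abcc5 (ENSMUSG00000022822, chromosome 16, 20150053 to 20245144 on the files' unnamed build) fell by 1.45 ± 0.20 on the log2 scale, or 2.74-fold (edgeR adjusted p = 0.00367). Abcc12, a little studied relative of these exporters, had 289, 204 and 126 reads in the CSAA libraries and 8, 1 and 39 reads in the CDAA libraries. That is 14.2, 10.9 and 7.83 CPM against 0.609, 0.0741 and 2.77 CPM, without overlap, and the CDAA livers differed widely among themselves. Abcc12 (ENSMUSG00000036872, chromosome 8, 87208889 to 87307315 on the files' unnamed build) fell by 3.23 ± 0.73 on the log2 scale (edgeR adjusted p = 0.0243). The call was lost without CSAA replicate 1, 2 or 3 or CDAA replicate 1 (edgeR adjusted p up to 0.0932), and without CDAA replicate 3 the value was -4.99.

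The other 4 Abcc exporters did not pass. Abcc4, a basolateral exporter of cyclic nucleotides and bile salts, was at 12.8, 7.15 and 6.77 CPM in the CSAA livers and 4.41, 2.96 and 6.33 CPM in the CDAA livers, without overlap (log2 -0.97 ± 0.35, edgeR adjusted p = 0.105). With scaling by library size alone, Abcc4 was called lower, and without CSAA replicate 1 its log2 difference was -0.59 (edgeR adjusted p = 0.345). Abcc3, which returns glucuronides to blood, was at 198, 457 and 312 CPM against 175, 254 and 356 CPM and overlapped (log2 -0.30 ± 0.33, adjusted p = 0.588). Abcc6, which mediates release of ATP and whose loss leads to soft tissue calcification, was at 194.6, 214.5 and 255.5 CPM against 269.3, 308.9 and 265.1 CPM without overlap (log2 0.34 ± 0.13, adjusted p = 0.124). The lowest CDAA value of Abcc6 was little above the highest CSAA value, and in FPKM its groups overlapped. Abcc10, a drug exporter, differed by 0.07 on the log2 scale (adjusted p = 0.756).

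Of the 9 genes of cell lipid export, 5 were tested and 1 passed, Abcg1, as lower, beside a median log2 fold change of 0.18. Abcg1 passes cholesterol to high-density lipoprotein (HDL) particles and is well known in macrophages. Its levels were 31.7, 28.0 and 34.1 CPM in the CSAA livers and 10.4, 10.3 and 13.4 CPM in the CDAA livers. The diets were far apart and the spread within each was small. Abcg1 (ENSMUSG00000024030, chromosome 17, 31276649 to 31336962 on the files' unnamed build) fell by 1.46 ± 0.15 on the log2 scale, or 2.75-fold (edgeR adjusted p = 0.00155), the smallest adjusted p among the members. Abca1, which loads cholesterol and phospholipid onto apolipoprotein A-I, was at 211.5, 257.5 and 343.6 CPM in the CSAA livers and 375.8, 425.8 and 340.9 CPM in the CDAA livers. Only CSAA replicate 3 and CDAA replicate 3 crossed, and the log2 difference of 0.49 ± 0.19 did not pass (edgeR adjusted p = 0.116), although DESeq2 and the fit without CSAA replicate 3 called it higher. In FPKM the ratio of Abcg1 to Abca1 was 0.213, 0.154 and 0.141 in the CSAA livers and 0.0391, 0.0344 and 0.0557 in the CDAA livers, so that every CDAA liver was lower. That ratio was not tested either.

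Among 12 partners of Abca1 and Abcg1 in cholesterol efflux, 2 passed as higher and 2 as lower, beside 4.25% and 10.5% of all genes. The median log2 fold change over the 12 was 0.29. Soat1, which esterifies cholesterol for storage, was at 35.6, 18.7 and 27.5 CPM in the CSAA livers and 8.68, 7.56 and 8.89 CPM in the CDAA livers, and fell by 1.70 ± 0.23 (edgeR adjusted p = 0.00386). Npc2, the lysosomal cholesterol carrier, fell by 0.63 ± 0.16 (adjusted p = 0.0342). Cyp27a1, a mitochondrial sterol hydroxylase that feeds bile acid synthesis, rose by 0.76 ± 0.12, from 316 ± 30.7 to 533.5 ± 28.5 CPM (adjusted p = 0.00669). Lipc, the hepatic lipase, rose by 0.60 ± 0.15 (adjusted p = 0.0392). Of 13 nuclear receptors and other factors known to act on Abc genes, 0 passed with edgeR or limma-voom. DESeq2 called 1 of them higher, and at an unadjusted edgeR p under 0.05 there were 2 higher and 1 lower. The liver X receptor Nr1h3 differed by 0.08 ± 0.10 on the log2 scale and the bile acid receptor Nr1h4 by 0.19 ± 0.14. Their median log2 fold change was 0.24.

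In the remaining lipid exporters, Abca7, a lipid exporter linked to phagocytosis, had a log2 difference of -0.68 ± 0.20 without overlap and narrowly missed the threshold (edgeR adjusted p = 0.0584). It passed with upper-quartile factors, scaling by library size, DESeq2, limma-voom and without CDAA replicate 3. Abca2, found in lysosomes, differed by 0.49 (adjusted p = 0.104) and was called with DESeq2 and without CDAA replicate 1. Abca3, which packs lung surfactant lipid into lamellar bodies, differed by 0.18 (edgeR adjusted p = 0.299).

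The Abca genes of chromosome 11 form a run in the order Abca8b, Abca8a, Abca9, Abca6 and Abca5, all on the minus strand, with gaps of 29788, 4770, 8623 and 17592 bases and 0 other listed genes starting between them. All 5 were tested and 2 passed, both as higher, beside 4.25% of all genes. The median log2 fold change over the 5 was 0.01. Abca8a, related to lipid exporters of the HDL pathway, was at 122.8, 105.4 and 166.1 CPM in the CSAA livers and 235.4, 243.5 and 440.3 CPM in the CDAA livers. All CDAA livers were above all CSAA livers, with CDAA replicate 3 much the highest. Abca8a (ENSMUSG00000041828, chromosome 11, 109916460 to 109986804 on the files' unnamed build) rose by 1.22 ± 0.27 on the log2 scale, or 2.33-fold (edgeR adjusted p = 0.0237), a call lost without CSAA replicate 1 or 2 (adjusted p = 0.0931 and 0.0816).

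Abca8b, the close copy next to it, was at 212, 168.1 and 149.4 CPM in the CSAA livers and 146.7, 129.4 and 206.7 CPM in the CDAA livers, with overlap (log2 -0.13 ± 0.20, edgeR adjusted p = 0.698). In FPKM, Abca8a was at 0.685, 0.742 and 1.32 times Abca8b in the CSAA livers and at 1.90, 2.23 and 2.52 times in the CDAA livers. How reads matching both copies were treated is not given in the sources used here, so the division between Abca8a and Abca8b is uncertain. Abca6, the most abundant gene of the run at 46.8 FPKM, was at 191, 224.3 and 207.9 CPM in the CSAA livers and 314.7, 303.5 and 297.6 CPM in the CDAA livers. The groups were well separated and each was tight. Abca6 (ENSMUSG00000044749, chromosome 11, 110067646 to 110142602 on the files' unnamed build) rose by 0.56 ± 0.11, or 1.47-fold (edgeR adjusted p = 0.0136), a call lost with scaling by library size (0.0979) and without CSAA replicate 1 (0.0568). Abca9 and Abca5 differed by 0.01 and -0.10 on the log2 scale.

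Abcd3 was the member with the highest level among those that rose. It encodes the main peroxisomal ABC half-transporter of liver, also called PMP70, which brings branched-chain and dicarboxylic fatty acids and bile acid intermediates into peroxisomes. Its levels were 433, 487 and 565 CPM in the CSAA livers and 971, 957 and 1009.8 CPM in the CDAA livers. The CDAA livers lay within a narrow band far above all CSAA livers. Abcd3 (ENSMUSG00000028127, chromosome 3, 121552423 to 121608951 on the files' unnamed build) rose by 0.98 ± 0.14, from 495 ± 66.6 to 979 ± 27.3 CPM, or 1.98-fold (edgeR adjusted p = 0.00396).

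Abcd2 and Abcd4, also of the Abcd group, did not pass. Abcd2, a peroxisomal carrier of very long-chain fatty acids, was at 22.2, 46.3 and 38.5 CPM in the CSAA livers and 15.1, 43.6 and 50.6 CPM in the CDAA livers (log2 0.03 ± 0.42, edgeR adjusted p = 0.970), and it spread widely within both diets. Abcd4, which acts in lysosomal release of cobalamin, was at 10.4, 11 and 14 CPM against 11.3, 15 and 11.4 CPM (0.10 ± 0.18, adjusted p = 0.764). Both overlapped between the diets. Of 9 peroxisomal partners, 2 passed with edgeR, both as higher, beside 4.25% of all genes, with a median log2 fold change of 0.44. DESeq2 called 6 of them higher, beside 2687 of 14016 genes in either direction. Pex19, the chaperone that carries membrane proteins such as PMP70 to peroxisomes, rose by 0.54 ± 0.11, from 93.7 ± 9.82 to 136 ± 8.64 CPM (adjusted p = 0.0177).

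Of the 5 members of mitochondria and lysosomes, 1 passed, Abcb10, as higher, with a median log2 fold change of 0.13. Abcb10, an inner mitochondrial membrane protein of heme metabolism, was at 26.5, 26.9 and 33.7 CPM in the CSAA livers and 44.1, 45.1 and 43.7 CPM in the CDAA livers. The CDAA livers differed little from each other and were all higher. Abcb10 (ENSMUSG00000031974, chromosome 8, 124679198 to 124709861 on the files' unnamed build) rose by 0.61 ± 0.12, or 1.52-fold (edgeR adjusted p = 0.0146), a call lost with scaling by library size (0.0635) and without CSAA replicate 1 or 2 (0.0666 and 0.0531). Its interval lies within that of Galnt2l on the opposite strand, which had 0 reads. Abcb8 and Abcb6, both tied to mitochondria, and the lysosomal peptide carrier Abcb9 differed by 0.13, 0.13 and -0.14 on the log2 scale and did not pass. Of the 8 mitochondrial iron-sulfur and heme partners 0 passed with edgeR, DESeq2 or limma-voom, 0 had an unadjusted edgeR p under 0.05, and their median was 0.16.

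Abcg3, a rodent gene of unsettled function, was at 12.4, 11.9 and 13.1 CPM in the CSAA livers and 2.97, 3.93 and 7.39 CPM in the CDAA livers. The CSAA livers were nearly equal, and CDAA replicate 3 was the highest of its group. Abcg3 (ENSMUSG00000029299, chromosome 5, 105082923 to 105130584 on the files' unnamed build) fell by 1.38 ± 0.31, from 12.5 ± 0.608 to 4.76 ± 2.33 CPM (edgeR adjusted p = 0.0238). The call was lost without CSAA replicate 1, 2 or 3 or CDAA replicate 2 (adjusted p up to 0.0824).

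The translation factors Abce1, which splits ribosomes for reuse, Abcf1, Abcf2 and Abcf3 had log2 differences of 0.14, 0.06, 0.24 and 0.26. Of these 4, 0 passed with edgeR or DESeq2, and 2 had an unadjusted edgeR p under 0.05. Abcc9, the regulatory subunit of ATP-sensitive potassium channels in vessel muscle, had a log2 difference of -0.39 ± 0.11 without overlap and did not pass (edgeR adjusted p = 0.0568). The related Abcc8 of pancreatic beta cells had 1 read in all 6 libraries together.

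Some ABC proteins carry other symbols. Tap1, which with Tap2 moves antigen peptides into the endoplasmic reticulum, was at 50.7, 53.9 and 61.7 CPM in the CSAA livers and 32.0, 40.8 and 38.2 CPM in the CDAA livers. It fell by 0.58 ± 0.13 (edgeR adjusted p = 0.0209), and Tap2 differed by -0.48 ± 0.14 (adjusted p = 0.053). Of 6 peptide loading partners, Tapbp, the bridge between TAP and class I molecules, fell by 0.55 ± 0.12 (adjusted p = 0.0205), and the median over the 6 was -0.06.

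The promoter windows of 38 members were matched in RefSeq (GRCm38.p6), 7 of them among the 10 that passed. The nuclear receptor half-site AGGTCA, sought on both strands, lay in windows of 5 of the 38 members and in 16.3% of all windows. The 38 members had 45 windows, and a match in any window counted for the gene, so these shares are in unlike units. Of the 7 called members with a window only Abcg2 held the half-site. The other members that held it were Abcb11, Abcc2, Abcb6 and Abcc10. The windows of Abcg2 (chr6:58640296-58640595, plus strand, 1 of 3 listed for this gene) and of Abcb11 (chr2:69342567-69342866, minus strand) are printed as examples.
Abcg2 window: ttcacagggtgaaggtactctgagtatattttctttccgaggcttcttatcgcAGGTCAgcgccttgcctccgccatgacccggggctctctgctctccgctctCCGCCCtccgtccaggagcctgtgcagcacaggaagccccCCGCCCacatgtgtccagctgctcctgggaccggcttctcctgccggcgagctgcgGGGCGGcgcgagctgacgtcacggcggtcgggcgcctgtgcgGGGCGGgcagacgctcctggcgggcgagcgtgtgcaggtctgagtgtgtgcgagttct
Abcb11 window: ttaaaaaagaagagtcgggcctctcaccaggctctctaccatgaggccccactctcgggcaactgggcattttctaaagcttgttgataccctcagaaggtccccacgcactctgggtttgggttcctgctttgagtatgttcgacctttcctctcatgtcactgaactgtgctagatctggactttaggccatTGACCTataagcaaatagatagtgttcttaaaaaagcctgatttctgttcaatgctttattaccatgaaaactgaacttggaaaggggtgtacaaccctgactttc
Capitals mark AGGTCA, which reads TGACCT from the opposite strand, and the GC box GGGCGG, which reads CCGCCC from the opposite strand. The GC box was found 4 times in the Abcg2 window and in 35.7% of all windows. The GC content was 67.0% for Abcg2 and 45.3% for Abcb11, against a median of 52.7% over all windows.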

How the data were processed

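Total RNA from 6 livers was sequenced, 1 library per mouse, from 3 ug of RNA. The authors deposited whole-number read counts per gene, not normalised, per the file headers. The deposited FPKM were made by the authors from those counts, per the file headers, and served here only to compare levels between genes; they carry no TMM factor. The submitters' processing notes list HISAT2 2.0.5, HTSeq 0.9.1, cutadapt 1.15 and DESeq 1.30.0, with mm10 and mm9 as builds. How strand and multiply matching reads were handled is not given in the sources used here. Since the headers name no build, gene coordinates keep the files' own numbering. Of the 50 members, 1 had the start and end given by GENCODE M21, a GRCm38 annotation. The printed gene coordinates should therefore not be set against the GRCm38.p6 promoter windows.

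Low counts were removed with filterByExpr, and edgeR 4.0.16 under R 4.3.3 compared CDAA with CSAA (TMM, glmQLFit and glmQLFTest, two-sided, without covariates). Benjamini-Hochberg adjustment covered all 12845 genes tested, with a threshold of 0.05. The standard error is the size of the log2 fold change over the square root of F. Alternatives used DESeq2 1.42.0, limma 3.58.1 (voom), other scalings and filters, a replicate block and fits without each library. On counts simulated for this comparison over 12845 genes, 200 of them changed, 10 of 67 were recovered at 1.5-fold, 42 of 67 at 2-fold and 62 of 66 at 4-fold, with 7 false calls.

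Members, roles, partner lists and marker lists were chosen with earlier results of these data known. Named are all members that passed, 18 members with an established part in liver export whatever their result, and all partner genes that passed; others named were chosen after their values were seen. No libraries of a group agreed within sampling noise. Some items are not reported here.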

Additional observations from a re-analysis of the deposited data

How the results depend on the processing

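Abcg1, Abcc1, Abcc5 and Abcd3 kept their direction and call in all 14 alternatives. Over the 10 called members, 118 of 140 alternative values kept both, 22 lost the call and 0 reversed. Against 5 higher and 5 lower members, library size alone gave 2 and 9 and DESeq2 10 higher; leaving out 1 replicate gave 1 to 6 higher and 3 to 6 lower. Partner and marker genes (11 higher, 29 lower) became 5 higher with library size alone and 26 with DESeq2, and 3 to 19 higher and 17 to 30 lower without 1 replicate. Among members that did not pass, the log2 difference reversed for Abcc2 with RLE factors (0.0193), DESeq2 (0.0234), limma-voom (0.0116) and the block (0.0104), and for Abcd2 with library size alone (-0.23), upper-quartile factors (-0.00879), limma-voom (-0.0622) and the block (-0.0707); Abcd4 reversed with library size alone (-0.18) and Abcb1a with the block (-0.000798). Leaving out 1 replicate, the ranges crossed 0 for Abcb1a (-0.80 to 0.72), Abcb4 (-0.264 to 0.0425), Abcc2 (-0.11 to 0.26), Abcc3 (-0.586 to 0.0465), Abcd2 (-0.28 to 0.41) and Abcd4 (-0.0482 to 0.257). The cause was not tested. The libraries share only a replicate number: same-numbered libraries deviated together with r = 0.07, 0.12 and -0.06, and not every library correlated best with its own number. With the number as a replicate block, 6 members were higher and 5 lower; Abcg5 and Abcg8 passed and Abcg2 did not. With 3 mice per diet, changes well under 2-fold were mostly missed in the simulated counts. There 200 of 12845 genes were changed, while 1901 were called in the data. The adjusted threshold depends on that share, so the recovery may not carry over. No sample could be tested as an outlier in groups of 3.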
